A study of Mus musculus with 6 samples.

Results

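A set of 10 abundant structural and nuclear RNAs was examined in CD8+ T cells: Rn7s1 and Rn7s2, Rn7sk, Rmrp, Rpph1, Terc, Malat1, Neat1, Norad and Tug1. They were taken by gene symbol alone and filled 12 rows of the 78275 in the count table, because Rmrp and Terc each had 2 rows. All 12 rows passed the filter on low counts, among 16105 rows tested. The question was how much of each library these RNAs took, and whether their levels differed between genotypes.

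The T cells were CD4-CD8+ with high TCRβ, sorted to a purity above 98% from male mice aged 9 to 10 weeks, with 3 individual mice of each genotype. The sample labels name lymph nodes as the source, whereas the protocol names spleens as well. WT mice carried the unmodified locus. BIT mice were homozygous for β5iβ5t, an allele on the C57BL/6 background in which the sequence of Psmb11 (the thymoproteasome subunit β5t) was inserted at the translation start of Psmb8 (the immunoproteasome subunit β5i), in the germline and so in all cells. The study used 1 BIT line unless it stated otherwise. Total RNA was depleted of ribosomal RNA and sequenced in stranded libraries, with no selection for poly(A) tails.

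The libraries held 37467678 to 52922675 estimated counts. Psmb8 had 10790, 10345 and 8024 counts in WT replicates 1, 2 and 3 and 73, 59 and 60 counts in BIT replicates 1, 2 and 3. Psmb11 had 0 counts in every WT library and 1926, 1754 and 1226 in the BIT libraries, so both genes matched the genotype labels. One library went against the label of a male mouse: WT replicate 3 held 66626 Xist counts and 0 counts over 4 Y-linked genes, whereas the other 5 libraries held 2 to 125 Xist counts and 8474 to 12329 Y-linked counts. For several of the 10 RNAs, their summed share and the ratio of RNA polymerase III to II transcripts, values without WT replicate 3 are therefore given too. Marker genes and partner genes are given with all 6 libraries only. Of the 6 marker lists, CD8 T cell genes summed to 5429 to 5931 CPM (counts per 1000000 counts of the library), against 30.1 to 47.5 CPM for B cell genes and 48.7 to 70.0 CPM for myeloid genes. CD4 T cell genes summed to 6.17 to 9.94 CPM in WT and 4.16 to 5.79 CPM in BIT, without overlap. Of these, Ctla4 had 2.17 to 4.26 CPM in WT and 0.547 to 1.31 CPM in BIT. Foxp3 had 0.751 to 1.21 CPM in WT and 0.480 to 0.642 CPM in BIT. The genotypes overlapped for Cd4, Cd40lg and Zbtb7b. Erythroid genes summed to 2.68 to 16.8 CPM in WT and 7.26 to 60.7 CPM in BIT. The NK cell list summed to 76.7 to 109 CPM in WT and 137 to 162 CPM in BIT, again without overlap, of which Eomes, a transcription factor that CD8 T cells express too, made up 72.1 to 155 CPM over the 6 libraries. No gene of the 6 marker lists passed an adjusted p of 0.05 (limma-voom). Whether these levels had any part in the values below was not tested.

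These RNAs are known for work as RNA, not as templates for protein, although the annotation types Tug1 as protein-coding. RNA polymerase III makes the short, highly structured ones: 7SL (Rn7s1 and Rn7s2), the scaffold of the signal recognition particle that brings secretory and membrane proteins to the endoplasmic reticulum; 7SK (Rn7sk), which holds the elongation kinase P-TEFb inactive; and the catalytic RNAs of RNase P (Rpph1) and RNase MRP (Rmrp), which cut precursors of tRNA and rRNA. RNA polymerase II makes the others: Terc, the template RNA of telomerase; Malat1 and Neat1, long RNAs of nuclear speckles and paraspeckles; Norad, a mostly cytoplasmic RNA that binds Pumilio proteins; and Tug1, a long RNA found in both nucleus and cytoplasm. Several lack a poly(A) tail, so they are seen in full only in libraries made from total RNA.

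The sequences set a limit on what short reads can tell apart, so they are described first, with a few of them printed. Transcript sequences are those of Gencode M39 on the mouse build GRCm39. Rn7s1 (chr12:69206069-69206368, plus strand) and Rn7s2 (chr12:69407956-69408255, minus strand) are single-exon genes of 300 bases on opposite strands of one chromosome, and the annotated transcripts were the same at every base, with 0 differences.

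Rmrp was annotated as a ribozyme of 271 bases (chr4:43492788-43493058, minus strand) and again as a long non-coding RNA of 281 bases (chr4:43492783-43493063), which contains the first with 5 more bases at each end. The capitals mark the bases that the longer model alone holds.
Rmrp, longer model: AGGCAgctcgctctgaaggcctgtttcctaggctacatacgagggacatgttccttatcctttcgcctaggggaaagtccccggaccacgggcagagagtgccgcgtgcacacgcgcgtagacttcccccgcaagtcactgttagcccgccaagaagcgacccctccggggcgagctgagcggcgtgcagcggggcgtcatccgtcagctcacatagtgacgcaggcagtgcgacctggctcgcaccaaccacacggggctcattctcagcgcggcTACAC

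Terc (chr3:96321753-96322149, minus strand) had a model of 397 bases and a nested one of 423 bases with 26 more at the 5′ end. Its template, which telomerase copies into telomere repeats, lay at bases 2 to 9 of the shorter model and is in capitals in the first 60 bases.
Terc: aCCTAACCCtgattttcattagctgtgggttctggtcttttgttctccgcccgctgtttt

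In Rn7sk (chr9:78082585-78082915, minus strand), the first stem binds the P-TEFb inhibitor Hexim1 through paired GATC stretches. GATC occurred 3 times in the 331 bases and 2 times in the first 60, shown in capitals. Transcripts of like length (within 20%) held a median of 1, and 8.5% of 21252 held as many as 3.
Rn7sk: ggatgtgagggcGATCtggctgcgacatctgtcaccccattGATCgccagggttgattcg

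Malat1 (chr19:5845717-5853602, minus strand) ends in a triple helix that protects its tail, which is cut rather than polyadenylated. The stretch is shown from base 7498 to base 7603 of the 7886-base transcript, with both U-rich motifs and the A-rich tract in capitals (T for U, as in the annotation).
Malat1: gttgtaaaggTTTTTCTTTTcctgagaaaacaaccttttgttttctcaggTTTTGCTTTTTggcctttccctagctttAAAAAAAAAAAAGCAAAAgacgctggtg

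Norad (chr2:156229977-156234978, minus strand) is known for repeated Pumilio binding motifs. TGTANATA, searched on the transcript's strand, matched 11 times in the 4945 bases of the annotated transcript used. Transcripts of like length held a median of 0, and 0.024% of 54344 held as many. Neat1 held 4 matches in 22397 bases, and Malat1 and Tug1 held 0. A stretch of Norad with 2 matches, bases 1534 to 1653, is shown with the matches in capitals.
Norad: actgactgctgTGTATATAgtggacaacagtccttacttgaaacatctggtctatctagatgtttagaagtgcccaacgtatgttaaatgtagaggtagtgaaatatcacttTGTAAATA

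Together the 10 RNAs took 13.1%, 14.4% and 12.7% of all counts in WT replicates 1, 2 and 3, and 14.4%, 14.8% and 12.6% of those in BIT replicates 1, 2 and 3. The means were 13.4% ± 0.897 (SD, n = 3) in WT and 13.9% ± 1.17 (SD, n = 3) in BIT, and the groups overlapped (exact permutation test, two-sided, p = 0.8). The difference of 0.539 percentage points was 0.193 without WT replicate 3, 0.109 without BIT replicate 2, 1.05 without WT replicate 2 and 1.21 without BIT replicate 3, and -0.573 when Rn7s1 and Rn7s2 were left out of the sum. In a bulk sample, fewer cells of a type and less RNA per cell cannot be told apart. With 3 mice against 3, that test cannot give a p below 0.1. The 95% Wilson interval of a row's share, which covers counting error only, reached at most 6.79% of that share to either side, apart from the 2 Terc rows, where it reached 8.94% (shorter model) and 42.5% (longer model).

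**Figure D1:**
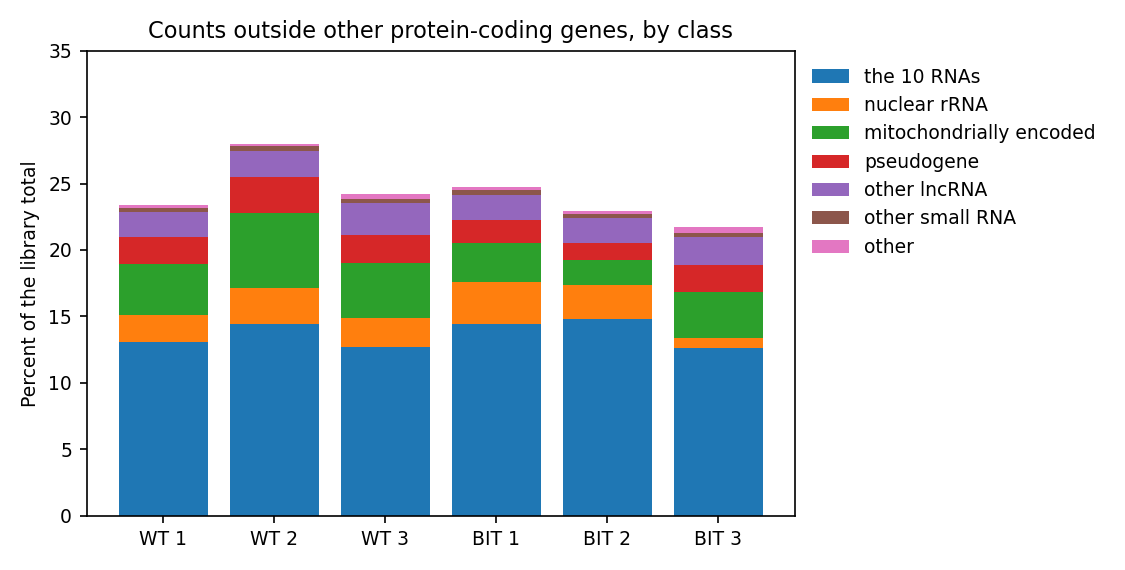
Stacked bars of the percent of each library's counts (linear axis from 0) that fell outside other protein-coding genes, by annotation class, for WT replicates 1 to 3 and BIT replicates 1 to 3. The lowest segment, the 10 RNAs, runs from 12.6% to 14.8%, and the mitochondrial segment is smaller in every BIT library (1.91% to 3.45%) than in any WT library (3.85% to 5.61%).

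Nearly all of that share came from the 5 RNA polymerase III transcripts. These took 12.3%, 13.5% and 10.7% of the WT libraries and 13.9%, 14.1% and 11.2% of the BIT libraries, whereas the 5 RNA polymerase II transcripts took 0.740%, 0.862% and 2.01% in WT and 0.507%, 0.673% and 1.35% in BIT. Replicate 3 of each genotype had the lowest polymerase III share and the highest polymerase II share of its group. The ratio of the former to the latter was 16.6, 15.7 and 5.31 in WT and 27.4, 21.0 and 8.32 in BIT. The difference of 0.59 on the log2 scale was within the spread (exact permutation test, p = 0.5) and was 0.06 without WT replicate 3.

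Of the other counts, 72.0% to 78.3% of each library lay in other protein-coding genes, 1.86% to 2.42% in other long non-coding RNAs and 0.304% to 0.382% in other small RNAs. The largest other non-coding row was Rn18s-rs5, a copy of ribosomal RNA left after depletion, with 0.813% in BIT replicate 3 and 2.06% to 3.16% in the other libraries. The next 4 were much smaller in mean share: ENSMUSG00000123342 with 0.319%, Gm70833 with 0.131%, Gm61125 with 0.109% and Scarna10, a small RNA of Cajal bodies, with 0.0838%. Mitochondrially encoded genes took 3.85%, 5.61% and 4.13% of the WT libraries and 2.98%, 1.91% and 3.45% of the BIT libraries (exact permutation test, p = 0.1, the smallest possible). Over counts without those genes, the 10 RNAs took 13.04% to 15.3% of the libraries, and the difference between the means was 0.290 percentage points, against 0.539 over all counts. A share can move because another class moves, and the 2 cannot be told apart in these data.

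**Figure D2:**
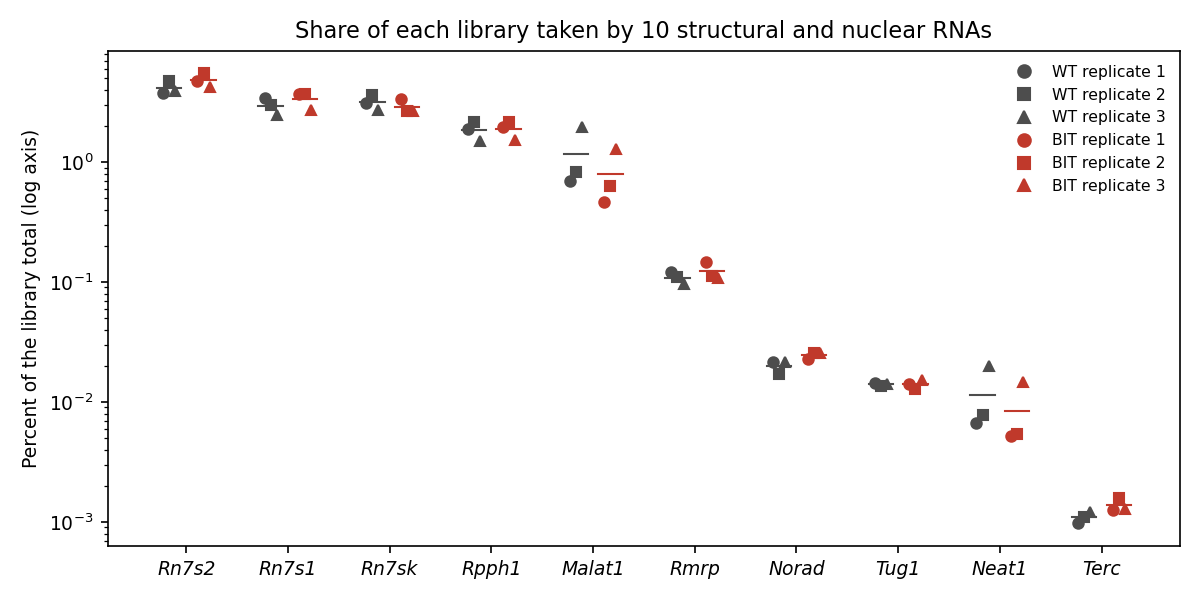
Percent of each library's counts taken by each RNA (log axis), with 1 point per library, grey for WT and red for BIT, circles, squares and triangles for replicates 1, 2 and 3, and short lines at the group means. For Rmrp and Terc the larger of their rows is drawn. Malat1 and Neat1 spread most, with replicate 3 on top in both genotypes, and Tug1 spreads least.

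Per length, the RNAs ranged over more than 4 orders of magnitude. In CPM per kilobase of exon, the medians over the 6 libraries were 148394 for Rn7s2, 106075 for Rn7s1, 88034 for Rn7sk and 60351 for Rpph1. Rmrp followed with 4113 (ribozyme row) and Malat1 with 963, then Norad with 44.5, Terc with 31.0 (shorter model), Tug1 with 14.6 and Neat1 with 3.22. Lengths were those of all annotated exons of a gene joined, 22397 bases for Neat1. Levels of single transcripts were not estimated, and this order depends on the lengths used. Rn7s2 lay above Rn7s1 in every library, with no overlap of their ranges (126051 to 183215 against 81653 to 123820), although this split between identical sequences is an estimate. The ranges of Rn7s1 and Rn7sk (79803 to 108629) overlapped and their order changed between libraries, so these neighbours could not be ordered beyond their spread. The ranges of Norad (34.0 to 51.2) and Terc (24.6 to 40.0) overlapped too, but Norad lay above Terc within each of the 6 libraries.

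The signal recognition particle RNA was the most abundant of the 10. Rn7s1 and Rn7s2 together took 7.17%, 7.68% and 6.38% of the counts in WT and 8.42%, 9.21% and 6.93% in BIT. BIT replicates 1 and 2 were above every WT library and BIT replicate 3 lay inside the WT range. The means were 7.08% ± 0.655 and 8.19% ± 1.16 (SD, n = 3 each; exact permutation test, p = 0.3). Since reads cannot tell the copies apart, RSEM divided them by its model. Rn7s1 was given 3.39%, 2.97% and 2.45% in WT and 3.66%, 3.71% and 2.73% in BIT. Rn7s2 was given 3.78%, 4.70% and 3.93% in WT and 4.76%, 5.50% and 4.20% in BIT. The ratio of Rn7s1 to Rn7s2 was 0.897 in WT replicate 1 and 0.624 to 0.770 in the other 5 libraries (exact permutation test between genotypes, p = 1), so the uneven split was seen in all 6 libraries. A long non-coding gene that overlaps Rn7s1 on the same strand, Gm59647, had only 12.4 to 25.5 CPM.

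For these RNAs the scale decided the fold change. Quantile normalization, which the study used, gives each library the same set of values and hands them out by rank. Rn7s2 was the highest of the 16105 rows in all 6 libraries, so all 6 were given one value, 15.4 log2 CPM, and its log2 fold change between BIT and WT was 0 whatever the counts. On the scale set by trimmed mean (TMM) factors, where a library's values are divided by a single number, Rn7s2 spanned 0.591 log2 units and its log2 fold change was 0.21 (95% interval -0.20 to 0.63). Rn7s1 and Rn7sk only exchanged ranks 2 and 3, which left each with 2 possible values, and Rpph1 took only ranks 5 and 6. Malat1 moved between ranks 5 and 13.

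**Figure D3:**
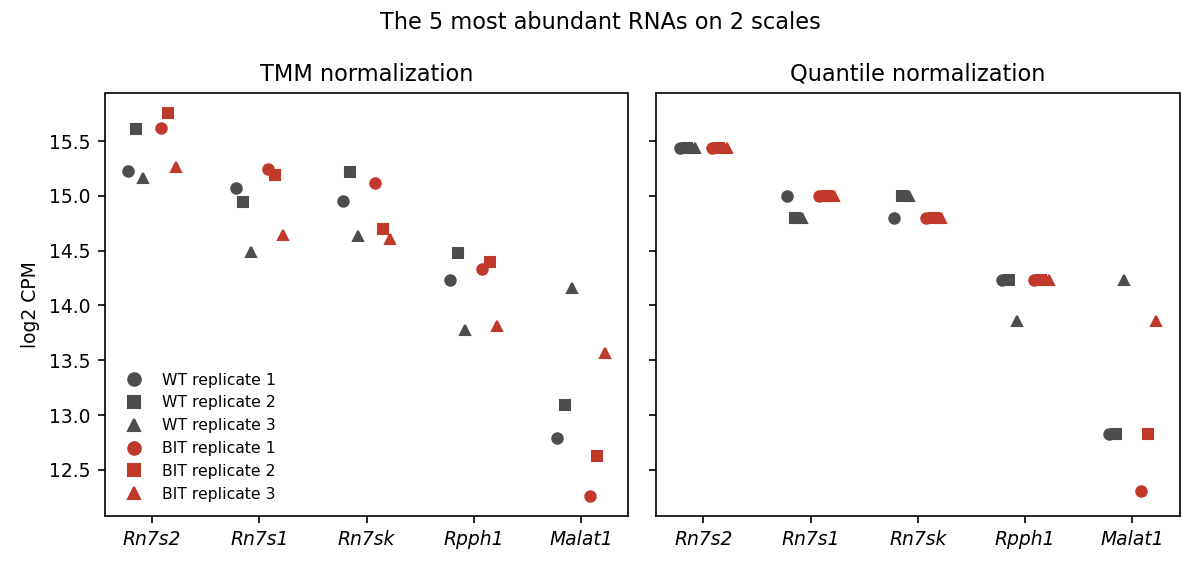
log2 CPM of the 5 RNAs after TMM scaling (left) and after quantile normalization (right), with 1 point per library, grey for WT, red for BIT, and a marker for each replicate. On the right Rn7s2 collapses to 1 value and Rn7s1, Rn7sk and Rpph1 to 2 values each, while Malat1 spans 1.9 log2 units in either panel.

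The proteins of the particle and its receptor, 10 genes tested, had 0 genes called (limma-voom with quantile normalization, adjusted p under 0.05) and 0 at an unadjusted p under 0.05. Their median log2 fold change was -0.09, against 0.01 over all genes. The extremes were Srp54b, a copy of the GTPase subunit, at -0.31 (SE 0.546, adjusted p = 0.897) and Srp68, a scaffold subunit, at 0.09 (SE 0.1003, adjusted p = 0.818). Srp54b had 25.0, 28.8 and 7.74 CPM in WT and 23.8, 9.84 and 12.9 CPM in BIT. Whether the division of reads among Srp54a, Srp54b and Srp54c had a part in this spread was not tested.

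Over all genes, that test called 22 of 16105, or 0.137%, and it called 0 of the 12 rows of the 10 RNAs. At an unadjusted p under 0.05 it gave 2 of the 12 rows, Norad and the shorter Terc model, where 8.57% of all rows tested passed. The WT and BIT libraries did not overlap in percent of the library for the same 2 rows, against 12.8% of all rows. TMM scaling, edgeR's quasi-likelihood test and DESeq2 also called 0 of the 12 rows, with 2 at an unadjusted p under 0.05 in each.

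**Figure D4:**
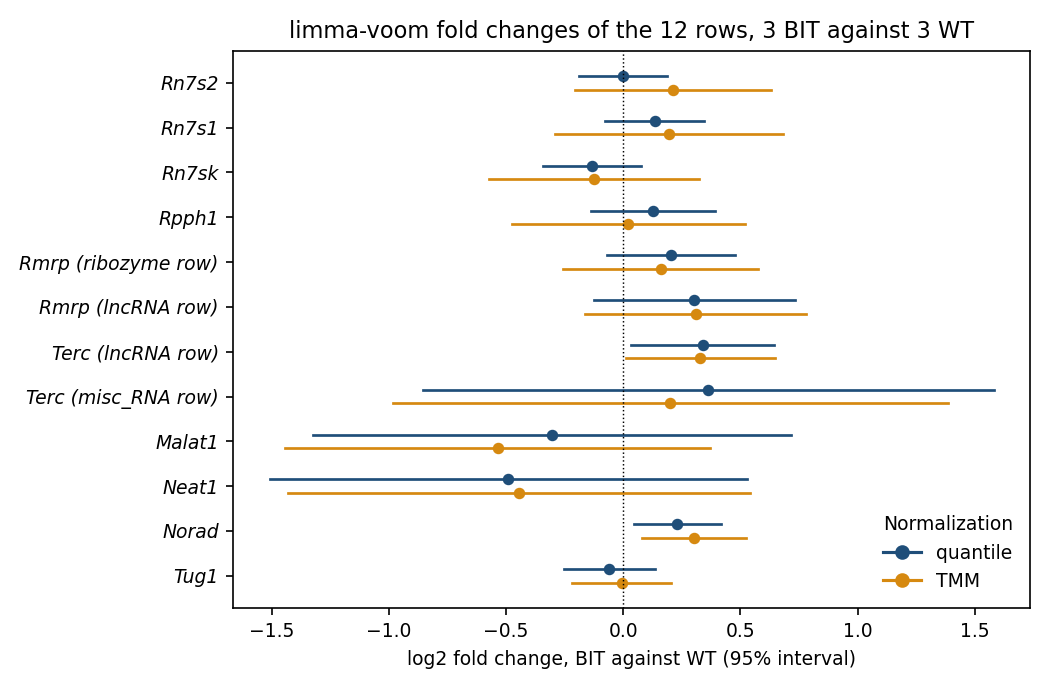
log2 fold change of BIT against WT (points) with its 95% interval (lines) from limma-voom for the 12 rows, blue after quantile normalization and orange after TMM scaling, 3 libraries a group. The intervals of Norad and the lncRNA row of Terc lie above 0 on both scales before adjustment over all genes, and those of Malat1 and Neat1 are the widest of the single-row RNAs.

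Rn7sk took 3.12%, 3.60% and 2.71% of the WT libraries and 3.36%, 2.64% and 2.66% of the BIT libraries. The groups overlapped, with means of 3.14% ± 0.443 and 2.89% ± 0.412 (SD, n = 3 each; exact permutation test, p = 0.5), and the log2 fold change was -0.12 (95% interval -0.57 to 0.32) after TMM scaling. After quantile normalization it was -0.13, a value set by the exchange of ranks with Rn7s1, and it was 0 when Rn7s1 and Rn7s2 were summed. Among 9 genes of the 7SK particle and P-TEFb, 0 were called and 1 passed an unadjusted p of 0.05, which 8.57% of all rows passed. That was Hexim1, the P-TEFb inhibitor, also the lowest of the list at -0.31 (SE 0.119, limma-voom adjusted p = 0.547). The highest was Ccnt1, the cyclin of P-TEFb, at 0.15 (SE 0.0704, adjusted p = 0.618), and the median was -0.04. The summed level of the list was 682 to 775 CPM in WT and 788 to 846 CPM in BIT. Ddx21 alone made up 325 to 365 CPM of it in WT and 361 to 418 CPM in BIT, which overlapped. For Hexim1, WT replicate 3 was the highest library, at 60.7 CPM, and no value without it is given.

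Of the RNase RNAs, Rpph1 was the more abundant. It took 1.90%, 2.15% and 1.49% of the WT libraries and 1.95%, 2.14% and 1.54% of the BIT libraries. The ranges of the genotypes nearly coincided, with means of 1.85% ± 0.331 and 1.88% ± 0.306 (SD, n = 3 each; exact permutation test, p = 0.8). The log2 fold change was 0.13 (95% interval -0.14 to 0.39) after quantile normalization, where it was 0 without WT replicate 3 because the ranks were then equal, and 0.02 (-0.48 to 0.52) after TMM scaling. Rpph1 (chr14:51044906-51045224, minus strand) overlaps Ccnb1ip1 on the same strand, which had 0.184 to 0.314 CPM, and Parp2 on the opposite strand, which had 18.8 to 22.6 CPM, both far below the level of Rpph1.

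Rmrp, ribozyme row, took 0.121%, 0.110% and 0.0953% of the WT libraries and 0.148%, 0.113% and 0.107% of the BIT libraries. BIT replicate 1 was the highest, WT replicate 3 the lowest, and the other 4 lay close together (exact permutation test between genotypes, p = 0.5). Its log2 fold change was 0.20 (95% interval -0.07 to 0.48). The longer row held 1.88% to 2.43% of all Rmrp counts. The ratio of Rmrp to Rpph1, both rows summed, was 0.0650, 0.0523 and 0.0652 in WT and 0.0778, 0.0539 and 0.0711 in BIT, with replicate 2 the lowest in each genotype (exact permutation test, p = 0.5). The 10 tested protein genes of RNase P and RNase MRP had 0 called and 0 at an unadjusted p under 0.05, with a median of -0.10 and with 2 of 10 above 0. They ranged from Pop5 at -0.17 (SE 0.174, limma-voom adjusted p = 0.804) to Rpp25l at 0.09 (SE 0.179, adjusted p = 0.911). Rpp25 was at or under 3 counts in every library.

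Since RNA polymerase III makes these 5 short RNAs, its subunits and factors were looked at as well. Of 29 genes, 0 were called and 16 lay above 0, with a median of 0.02. At an unadjusted p under 0.05, which 8.57% of all rows passed, 1 was higher and 1 lower. These were subunits of SNAPc, which starts transcription at promoters of the 7SK type: Snapc2 at 0.40 (SE 0.126, limma-voom adjusted p = 0.508) and Snapc5 at -0.37 (SE 0.152, adjusted p = 0.559). The summed level of the list was 1001 to 1118 CPM in WT and 1036 to 1135 CPM in BIT.

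Terc was the least abundant of the 10 in counts. Its shorter model had 9.76, 11.0 and 12.1 CPM in WT and 12.6, 15.9 and 12.9 CPM in BIT. Every BIT library was above every WT library, with means of 10.9 ± 1.15 and 13.8 ± 1.83 CPM (SD, n = 3 each; exact permutation test, p = 0.1, the smallest possible). The closest libraries were within counting error of each other, with 95% Wilson intervals of 0.00110% to 0.00132% of the counts in WT replicate 3 and 0.00116% to 0.00137% in BIT replicate 1. The log2 fold change was 0.34 (95% interval 0.03 to 0.64; limma-voom adjusted p = 0.553), so it was not called over all genes. The longer row, with 0.536 to 1.99 CPM, held 3.26% to 13.4% of all Terc counts and overlapped between genotypes. With both rows summed, Terc had 11.1, 12.2 and 12.8 CPM in WT and 14.3, 16.4 and 14.9 CPM in BIT, again without overlap, and the fold change was 0.35 (SE 0.113, adjusted p = 0.512). This sum was added after the data had been seen. Without WT replicate 3, the fold change of the shorter model was 0.36 (SE 0.154, adjusted p = 0.418), and over all alternatives it lay between 0.23 and 0.44, with adjusted p between 0.255 and 0.999.

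The 10 genes of telomerase and its assembly had 0 called and 0 at an unadjusted p under 0.05, with a median of 0.05 and 7 of 10 above 0. Naf1, an assembly factor of box H/ACA particles, was highest at 0.25 (SE 0.120, limma-voom adjusted p = 0.630) and Nop10, a core protein of those particles, was lowest at -0.39 (SE 0.218, adjusted p = 0.654). Tert, the reverse transcriptase, was low, at 0.475 to 1.21 CPM.

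**Figure D5:**
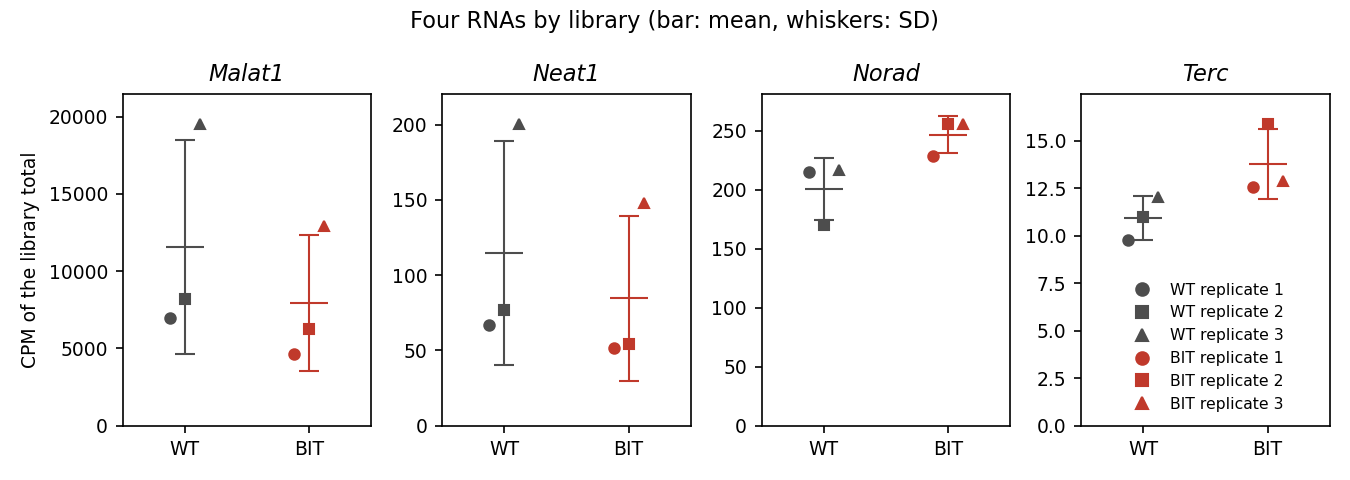
CPM of Malat1, Neat1, Norad and Terc (shorter model) by library on linear axes from 0, with 1 marker per replicate, a bar at the group mean and whiskers of 1 SD (n = 3). Replicate 3 stands far above replicates 1 and 2 for Malat1 and Neat1 in both genotypes, while for Norad and Terc the 3 BIT points lie above the 3 WT points.

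Malat1 varied most among the 10 RNAs in share of the library. It took 0.696%, 0.822% and 1.95% of the WT libraries and 0.464%, 0.628% and 1.29% of the BIT libraries, a range of 4.21-fold. Replicate 3 was the highest of each genotype by far, and replicates 1 and 2 of BIT lay below replicates 1 and 2 of WT. The means were 1.16% ± 0.693 and 0.795% ± 0.439 (SD, n = 3 each; exact permutation test, p = 0.5). The log2 fold change was -0.30 (SE 0.449, 95% interval -1.32 to 0.72, limma-voom adjusted p = 0.871) and -0.54 after TMM scaling (95% interval -1.44 to 0.37). After quantile normalization, the direction turned without WT replicate 3, to 0.20 (SE 0.352, limma-voom adjusted p = 0.849). That library went against its sex label. In the full fit, WT replicates 1 and 2 and BIT replicate 2 held rank 9 and so the same value, 12.8 log2 CPM. After TMM scaling they had 12.8, 13.1 and 12.6 log2 CPM. The fit without WT replicate 3 was not made on that scale. With replicates 1 and 2 alone, the log2 fold change after quantile normalization was -0.19 (SE 0.139, limma-voom adjusted p = 0.556). Over all alternatives the adjusted p of Malat1 was 0.103 to 0.999.

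Neat1 (chr19:5874736-5897132, minus strand), the neighbour of Malat1 on the chromosome and the scaffold of paraspeckles, spread in the same way. It had 67.1, 77.1 and 200.7 CPM in WT and 51.8, 54.3 and 148 CPM in BIT, with replicate 3 again on top in each genotype and the other BIT libraries below every WT library. Its log2 fold change was -0.49 (SE 0.448, 95% interval -1.51 to 0.53, limma-voom adjusted p = 0.781), and -0.04 without WT replicate 3 (SE 0.360, adjusted p = 0.971). With another library left out it ran from -0.25 without BIT replicate 1 to -0.80 without WT replicate 1 and -0.95 without BIT replicate 3 (SE 0.380, adjusted p = 0.428). In replicates 1 and 2 alone it was -0.50 with a smaller error (SE 0.123), which did not pass adjustment over all genes (adjusted p = 0.157). Over all alternatives the adjusted p of Neat1 was 0.121 to 0.999. The ratio of Neat1 to Malat1 counts held a narrow range, 0.00964, 0.00938 and 0.0103 in WT and 0.0112, 0.00865 and 0.0114 in BIT (exact permutation test, p = 0.6), while both RNAs ranged about 4-fold. Because the libraries fall into 2 sets, replicate 3 and the rest, no correlation between the pair is given.

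Of 1712 genes with a mean of 100 CPM or more, 3 followed Malat1 most closely over the 6 libraries: Clk1, a kinase of SR proteins (r = 0.982), Hnrnph1, a splicing regulator (r = 0.972), and Srsf6, an SR splicing factor (r = 0.972). These correlations of log2 CPM are a description, share the library totals, and replicate 3 of both genotypes was the highest of its group in each gene. Clk1 had 103, 118 and 198 CPM in WT and 86.5, 86.7 and 156 CPM in BIT, a smaller range than that of Malat1. Neat1 was just under the level required and was not compared.

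Proteins of the compartments that Malat1 and Neat1 mark were examined next. Of 18 genes of nuclear speckles and SR proteins, 0 were called, and 3 were lower at an unadjusted p under 0.05: Srsf5, Srsf11 and Srsf3. Over all rows tested, 8.57% passed that threshold in either direction. For Srsf5, Srsf11 and Srsf3, WT replicate 3 was the highest library in CPM, and no values without it are given. The median log2 fold change of the 18 genes was -0.17 against 0.01 over all genes, with 2 of 18 above 0. Srsf5 was the lowest at -0.29 (SE 0.127, limma-voom adjusted p = 0.575) and Son, a core scaffold of speckles, was the highest at 0.03 (SE 0.116, adjusted p = 0.955). Of 16 paraspeckle proteins, 0 were called and 2 were lower at an unadjusted p under 0.05, among them Ewsr1, an RNA-binding protein, at -0.27 (SE 0.0828, adjusted p = 0.506). Rbm14 was the highest of that list at 0.16 (SE 0.0963, adjusted p = 0.681), and the core proteins Nono at -0.03 and Sfpq at 0.11 were close to 0.

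Among 11 other long non-coding RNAs that were listed and tested, 0 were called and 3 were lower at an unadjusted p under 0.05. Of all rows, 8.57% passed that threshold in either direction. Gas5 was at -0.48 (SE 0.134, limma-voom adjusted p = 0.441), Snhg12 at -0.43 (SE 0.146, adjusted p = 0.531) and Snhg1, the lowest, at -0.78 (SE 0.284, adjusted p = 0.537). The highest was Pvt1 at 0.20 (SE 0.257, adjusted p = 0.853), and the median was -0.01. For Gas5, Snhg12 and Snhg1, WT replicate 3 was the highest library in CPM, and no values without it are given.

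Norad was the other RNA whose genotypes did not overlap, and it was not called either. It had 215, 170 and 216 CPM in WT and 228, 255 and 256 CPM in BIT. The 3 BIT libraries lay above the 3 WT libraries, with WT replicate 2 apart on the low side, and the means were 200.3 ± 26.3 and 246.6 ± 15.7 CPM (SD, n = 3 each; exact permutation test, p = 0.1, the smallest possible). The log2 fold change was 0.23 (SE 0.0824, 95% interval 0.04 to 0.42), with an adjusted p of 0.535 by limma-voom. TMM scaling gave 0.30 (adjusted p = 0.567), DESeq2 0.30 (adjusted p = 0.216), and the fit without WT replicate 3 gave 0.26 (adjusted p = 0.363). Over all alternatives Norad lay between 0.17 and 0.30, with adjusted p between 0.216 and 0.999. Of its 4 listed partners, Pum2, a Pumilio protein, was at 0.02 (SE 0.0847, adjusted p = 0.962) and Khdrbs1 was the highest at 0.04 (SE 0.0715, adjusted p = 0.904). Rbmx, an RNA-binding protein, was the lowest at -0.19 (SE 0.128, adjusted p = 0.708), and 0 of 4 were called.

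Tug1 (chr11:3589785-3599673, minus strand) had the narrowest spread of the 10. It had 143, 136 and 142 CPM in WT and 142, 127 and 154 CPM in BIT, a range of 1.21-fold with full overlap (exact permutation test, p = 1). The means were 140.6 ± 3.68 and 140.8 ± 13.3 CPM (SD, n = 3 each), and the log2 fold change was -0.06 (95% interval -0.25 to 0.14). The current annotation types Tug1 as protein-coding, and it overlaps Morc2a on the opposite strand, which had 47.8 to 65.9 CPM.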

How the data were processed

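Sorted CD8+ T cells of 3 WT and 3 BIT mice were profiled by total RNA sequencing after depletion of ribosomal RNA. Per the submitters' processing notes, reads were trimmed with Cutadapt 1.18, aligned with STAR 2.7.0f to GRCm39 and counted with RSEM 1.3.1 against Gencode M38. The authors deposited RSEM's estimated counts for each gene without normalization. Its strand setting is not given in the sources used here, so antisense overlaps of Rpph1 and Tug1 are named above. Rmrp also overlaps Ccdc107 on the opposite strand, at 5.93 to 8.56 CPM. On the opposite strand, Malat1 overlaps Gm59785 and Gm37376, Neat1 overlaps Frmd8os and Norad overlaps 1700057D03Rik. The highest of these was Frmd8os, at up to 1.00 CPM. Only 84.8% of values above 0 were whole (within 1e-06), because reads that match several genes are divided.

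The main test used the study's algorithm and normalization, limma-voom (limma 3.58.1, R 4.3.3) with quantile normalization. Filtering and TMM used edgeR 4.0.16. Calls were made at 0.05 after Benjamini-Hochberg adjustment over all 16105 genes tested. The filter and this threshold were chosen here. The study names no filter, picked genes by fold change and P, and counted a different number of detected genes. All fits, those of DESeq2 1.42.0 among them, were run on counts rounded to whole numbers. The fits by limma-voom, edgeR and DESeq2 were tried on simulated counts, and the other steps were not. Shares are percent of a library's total, and single values were compared with two-sided exact permutation tests. Adjusted over the 12 rows (Benjamini-Hochberg), those p-values were 0.6 to 1. Adjusted over the 5 share and ratio comparisons, all were 1. Log2 values of low counts carry an offset of 0.5 count. Positions and sequences come from Gencode M39 on the same build, which held 78263 of the 78275 gene identifiers.

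The members and the 15 gene lists were chosen with earlier results of these data known. Genes named were the 10 RNAs, Psmb8 and Psmb11, from each of 9 partner lists the called genes and those with the largest and smallest fold change, the 3 genes most like Malat1 and the 5 largest other non-coding rows. Some items that these rules select are not reported here. Other genes, among them those at an unadjusted p under 0.05, were named after their values were seen. No litter or day is stated for the study's replicate numbers, so the main fit has no block.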

Additional observations from a re-analysis of the deposited data

How the results depend on the processing

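No alternative called any of the 12 rows. At an unadjusted p under 0.05 the main fit gave 2 rows. That count ran from 0 (without BIT replicate 2) to 6 (replicate block), with 4 without the filter and 5 without BIT replicate 3. Of 177 fold changes of the RNAs under alternatives, 154 kept their sign, 5 changed it, and in 18 the main or the alternative value was exactly 0, 15 of these for Rn7s2, which was above 0 in the 5 fits without quantile normalization. Fits with a library left out were made after quantile normalization only. In them the log2 fold change of Malat1 ran from -0.74 to 0.20 (0.20 without WT replicate 3, 0.04 without BIT replicate 1). That of Neat1 ran from -0.95 to -0.04, and that of Tug1 from -0.0981 to 0.0111 (without BIT replicate 2). The longer Terc row ran from -0.0739 (without WT replicate 3) to 0.864, and was -0.23 with replicates 1 and 2 alone. The summed share differed (BIT minus WT) by -0.573 percentage points (exact permutation test, p = 0.2) when Rn7s1 and Rn7s2 were left out of the sum, since those carried the higher BIT share. The log2 ratio of Rn7s1 to Rn7s2 differed by -0.02, and by -0.11 to 0.15 with a library left out, above 0 without WT replicate 1, BIT replicate 2 or BIT replicate 3. Leaving out a library moved the log2 difference of the Pol III to Pol II ratio between 0.06 (without WT replicate 3) and 1.1 (without BIT replicate 3). Genes called over the whole table, 22, became 14 with edgeR, 125 with DESeq2, 71 with replicates 1 and 2 alone and 1 to 37 with a library left out (1 without WT replicate 1, 4 without WT replicate 2, 37 without WT replicate 3, 9 without BIT replicate 1, 2 without BIT replicate 2 and 11 without BIT replicate 3); the cause was not tested.

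The labels give the replicates no more than a shared number. Deviations of same-numbered libraries correlated at 0.203, 0.0165 and 0.396, and not every library correlated best with its own number. WT replicate 3 correlated at -0.331 and -0.150 with BIT replicates 1 and 2. BIT replicate 3 correlated at -0.313 and -0.206 with WT replicates 1 and 2. Whether same-numbered libraries share a litter or day was not tested. A replicate block called 21 genes and 0 of the 12 rows. It put Neat1 at -0.49 (SE 0.0826, limma-voom adjusted p = 0.121) and Malat1 at -0.30 (SE 0.116, adjusted p = 0.377). At an unadjusted p under 0.05 it gave 6 of the 12 rows and 2005 of all 16105. With TMM, added after the data were seen, the block called 24 genes and 0 rows, with Malat1 at -0.53 (adjusted p = 0.103).

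Identical or nested copies, a sex label that goes against 1 library, 3 mice a group and, for Terc, low counts limit these values.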
